A study of Zea mays with 24 samples.

Results

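The transcripts of the glycolytic pathway were followed in source leaves of maize under 3 stresses, from phosphoglucomutase to pyruvate kinase. The members were 39 probe identifiers that the study's supplementary gene list places under glycolysis, each counted once, out of 41780 transcript probes on the array, and 1 further identifier under that heading was not analysed here. The 39 cover 12 enzyme steps, and only the identifiers and descriptions of that list were used. The leaves came from the inbred line B73 grown on peat soil with nutrient solution, and RNA of the middle part of the leaf lamina was hybridized to 1 one-colour Agilent array per sample. Each of the 3 experiments held 4 stressed and 4 control samples, which gave 24 arrays in 6 groups of 4 biological replicates.

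In the low temperature experiment both groups received 15 mM KNO3 and 0.5 mM KH2PO4 and were harvested at day 20, when leaf 5 was the source leaf. Low T plants had nights of 4 °C and control T plants nights of 20 °C, and the days of both were at 28 °C. In both nutrient experiments leaf 6 was taken at day 30, with days of 28 °C and nights of 20 °C. Low N plants received 0.15 mM KNO3 where control N plants received 15 mM, both with 0.5 mM KH2PO4. Low P plants received 0.1 mM KH2PO4 where control P plants received 0.5 mM, both with 15 mM KNO3. Low T and low N plants were grown in a pair of successive sets and low P plants in a single one. Leaf age and growth chamber differed between the low temperature and the nutrient experiments, and season and year differed between all experiments. Differences between stresses are therefore given only as differences between the changes, each measured against its own control.

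Glycolysis converts hexose phosphates in the cytosol to pyruvate and yields ATP and NADH. In plants the conversion of fructose 6-phosphate to the bisphosphate can use ATP, by phosphofructokinase, or pyrophosphate, by a second enzyme that works in both directions, and fructose-1,6-bisphosphatase runs that reaction backwards during sucrose synthesis. Most steps are encoded by several genes, and in a photosynthesizing leaf the plastids hold their own forms of many of the same enzymes, so that the transcripts of 1 step need not move together.

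A value below is the log2 intensity of a probe minus the 75th percentile of its array, and a change is the difference between the mean values of stressed and control arrays ± the standard error of the fit. Levels of different probes are not compared. A transcript is said to have risen or fallen where the Benjamini-Hochberg adjusted p of limma over all 31507 tested probes was under 0.05, and a change is called more than 2-fold only where that p was under 0.05 as well. All 39 members were tested, and 38 of them were well above background on all 24 arrays. Markers of mesophyll and bundle sheath cells of the maize leaf (phosphoenolpyruvate carboxylase, pyruvate phosphate dikinase, NADP-malic enzyme and the small subunit of Rubisco) were above background on 24 of 24 arrays. These markers moved with the stresses. Pyruvate phosphate dikinase OptiV1C17314 fell by 1.22 ± 0.22 under low N and by 1.53 ± 0.48 under low P (adjusted p = 0.014 and 0.035), and phosphoenolpyruvate carboxylase OptiV1S31843 fell by 0.70 ± 0.15 under low N (adjusted p = 0.023). NADP-malic enzyme OptiV1C01148 fell by 0.47 ± 0.13 under low T, 0.77 ± 0.13 under low N and 0.78 ± 0.16 under low P (adjusted p = 0.031, 0.0086 and 0.0064). The other changes of the 4 markers lay between -0.35 and -0.02 and did not pass the test, and the part of the cell types in the results was not tested. The number of transcript probes above background ranged from 25780 to 36966 per array. In RNA of whole leaf tissue, fewer cells of a type and less RNA per cell cannot be told apart.

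Counted over the whole pathway, 5.13% of the members changed more than 2-fold in either direction under low T, 7.69% under low N and 12.8% under low P. Under low T 1 member rose and 1 fell more than 2-fold, against 7.25% and 7.12% of all tested probes. Under low N 0 members rose and 3 fell, against 2.68% and 3.12%. At an unadjusted p under 0.05 in limma, 17 of the 39 members differed between low N and control N in either direction, against 27.5% of all tested probes. Between low T and control T 17 did so as well, against 43.5%. Under low P 3 members rose and 2 fell more than 2-fold, against 8.21% and 3.01% of all tested probes. The 10 transcripts concerned changed more than 2-fold in exactly 1 stress each, and the other 29 members did so in none. The share of all tested probes that did so in exactly 1 stress was not determined.

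At the adjusted p alone, without a limit on the fold change, more members stood apart from their controls. Under low T 3 rose and 11 fell (15.2% and 15.8% of all tested probes), under low N 0 rose and 8 fell (5.33% and 5.76%), and under low P 13 rose and 8 fell (20.9% and 20.2%). The median change of the members was -0.24 in low T, -0.32 in low N and 0.16 in low P, where the median of all tested probes was -0.07, -0.04 and 0.03. Of the 39 members, 27 rose or fell in at least 1 stress, 12 in none and 2 in all 3, against 61.6%, 38.4% and 2.51% of all tested probes. The counts at the adjusted p alone depended on the processing. After normexp background correction, which models the local background of each spot, 1 member rose and 1 fell under low T, 1 rose and 10 fell under low N, and 9 rose and 6 fell under low P. With the 2 spike-in scalings described below 3 and 3 rose and 0 and 4 fell under low T, 0 rose and 0 fell under low N with either, and 10 and 21 rose and 2 and 2 fell under low P. Of the 8 falls under low N only 1 still passed when the first or the second replicate of both groups was left out, 5 passed when the third was and 3 when the fourth was. Of the 14 changes under low T 7 to 9 did so when 1 replicate was left out, and of the 21 under low P 18 to 20.

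**Figure D1:**
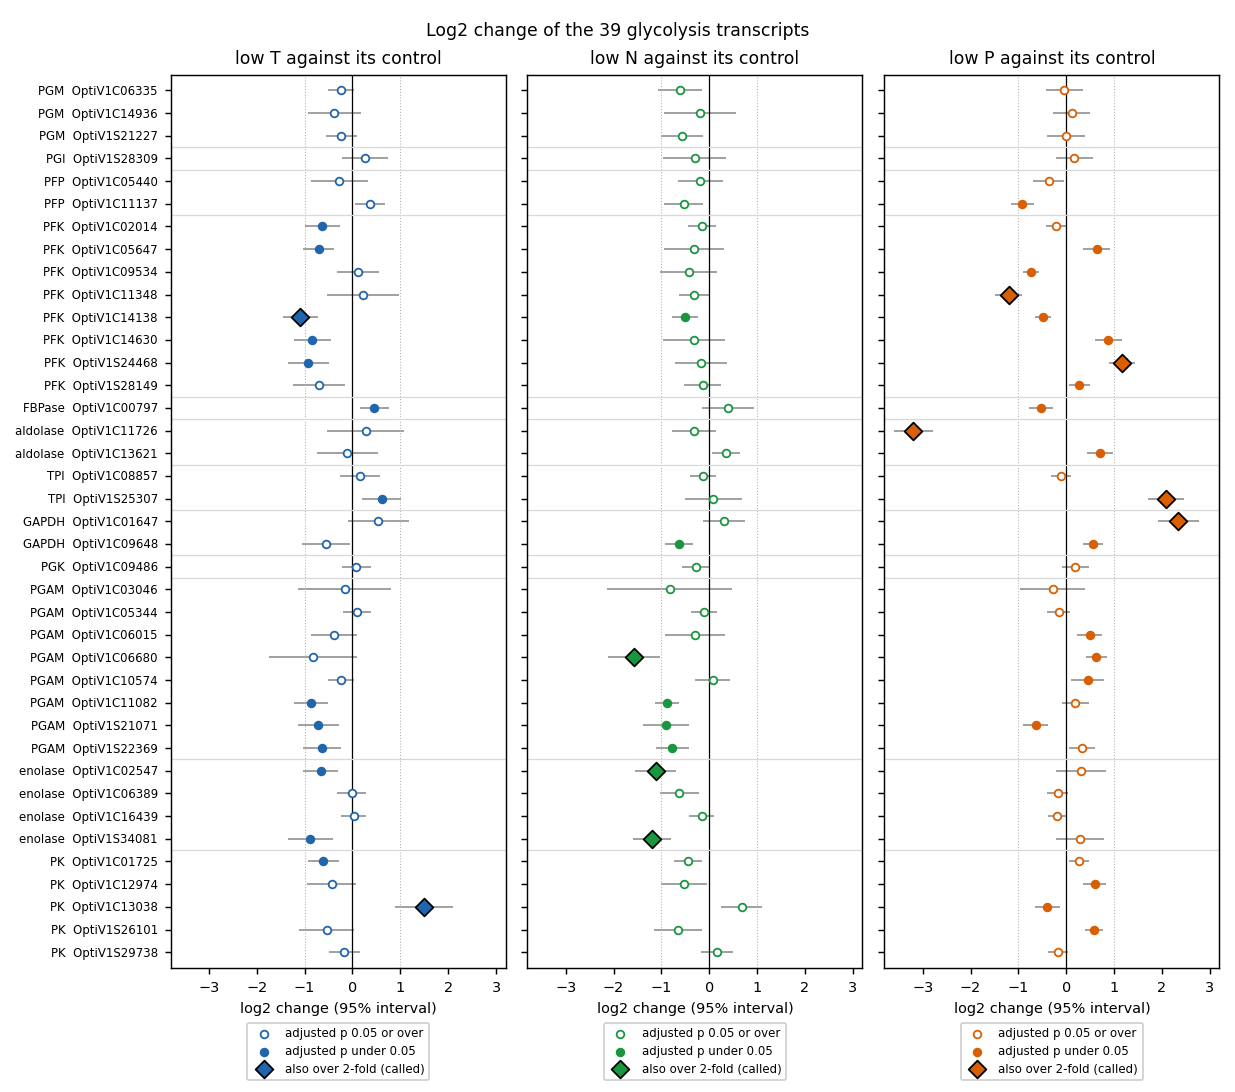
The log2 change (x axis) of each of the 39 members (y axis, ordered by enzyme step) is plotted with its 95% interval for low T, low N and low P, each against its own control, 4 arrays a group. Filled circles had an adjusted p under 0.05, diamonds also changed more than 2-fold, and the dotted lines mark 2-fold. The 5 diamonds of low P lie at the phosphofructokinase, aldolase, triosephosphate isomerase and glyceraldehyde-3-phosphate dehydrogenase steps, and the 3 of low N at phosphoglycerate mutase and enolase.

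How far the signs depend on the scaling of the arrays is a property of all probes. When the spike-in probes and not the 75th percentile set the scale, the median of all tested probes moved to 0.37 in low T, 0.49 in low N and 0.26 in low P, and with the 7 spike-in probes above background on every array to 0.15, 0.53 and 0.55. Under these scalings the median of the members became 0.20 and -0.03 in low T, 0.21 and 0.25 in low N, and 0.39 and 0.68 in low P. Directions in the text are therefore relative to the 75th percentile, and the members named as risen or fallen whose sign turned with spike-in scaling are phosphofructokinase OptiV1C14138 under low N and low P and pyruvate kinase OptiV1C13038 under low P. Each of these had changed less than 2-fold.

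The entry steps, which feed hexose phosphates into the pathway, showed no change that passed the test in the fit without a block. That fit does not use the replicate numbers, and the adjusted p of these steps with the replicate number as a block is not given here. Phosphoglucomutase, which interconverts glucose 1-phosphate and glucose 6-phosphate, was represented by 3 transcripts annotated as cytosolic. Their changes lay between -0.38 and -0.23 under low T, -0.62 and -0.19 under low N, and -0.04 and 0.11 under low P. The transcripts OptiV1C06335 (GRMZM2G109383) and OptiV1S21227 (GRMZM2G023289) ran nearly parallel over the 24 arrays, with a Pearson r of 0.99 and of 0.98 within groups, and whether their probes tell the 2 loci apart was not tested. For both, every low N array lay below every control N array, with adjusted p of 0.084 and 0.095 in limma. With the 2 spike-in scalings 2 and 1 of the 3 phosphoglucomutase signals were still below control N. One spot of OptiV1S21227, on the array of low T replicate 4, carried an outlier flag, so that its change under low T (-0.23 ± 0.14) rests on 3 stressed arrays.

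The single glucose-6-phosphate isomerase of the list, OptiV1S28309 (GRMZM2G036650), makes fructose 6-phosphate and is also listed by the study under the oxidative pentose phosphate pathway. Its change was 0.27 ± 0.21 under low T, -0.31 ± 0.29 under low N and 0.16 ± 0.17 under low P. Values in control N were -0.95, -1.0, -1.69 and -1.78 for replicates 1 to 4 and in low N -1.23, -1.30, -2.07 and -2.05. In both groups replicates 1 and 2 stood above replicates 3 and 4, by more than the groups differed. Each low N array lay below the control of its number.

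Of the enzymes that act between fructose 6-phosphate and fructose 1,6-bisphosphate, the ATP-dependent phosphofructokinases were the most varied. Their 8 transcripts encode the enzyme of the committed step of the pathway. Under low T 5 of them fell and 0 rose, a count that became 1 fallen (OptiV1C14138) after normexp correction and 0 and 3 fallen with the 2 spike-in scalings. Under low P 4 rose and 3 fell, and with the spike-in scalings 3 and 4 rose and 1 and 1 fell. Under low N the signals of all 8 were below control N, but only OptiV1C14138 fell, and all 8 were above it with either spike-in scaling.

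The phosphofructokinase 3 transcript OptiV1S24468 (GRMZM2G132069) showed the widest difference between stresses within this family. Its values were 2.76, 2.88, 3.05 and 2.54 in control P and 3.91, 3.94, 3.90 and 4.10 in low P. All low P arrays lay above all control P arrays, and the transcript rose by 1.16 ± 0.12 (2.24-fold, adjusted p = 0.00023). In the low temperature experiment the values were 4.05, 3.88, 3.81 and 3.66 in control T and 3.0, 2.44, 3.11 and 3.19 in low T. Here the groups did not overlap either, in the opposite direction, and the transcript fell by 0.92 ± 0.19 (adjusted p = 0.0080). This low T fall did not pass the test after normexp correction or when all spike-in probes set the scale. Under low N the change was -0.18 ± 0.24, with values of 2.83 to 3.40 in control N and 2.54 to 3.29 in low N that overlapped.

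A pair of further phosphofructokinase 3 transcripts had the same signs. OptiV1C05647 (GRMZM2G080375) fell by 0.71 ± 0.14 under low T and rose by 0.63 ± 0.12 under low P (adjusted p = 0.0076 and 0.0043). OptiV1C14630 (GRMZM2G401970) fell by 0.84 ± 0.17 and rose by 0.88 ± 0.12 (adjusted p = 0.0074 and 0.0011). Neither low T fall passed the test after normexp correction or when all spike-in probes set the scale. Both transcripts were at -0.32 under low N, without passing the test. Over the 24 arrays these 3 transcripts correlated at 0.84 to 0.94, and at 0.82 to 0.95 within groups, a description of likeness across arrays that share their treatment, slide and scaling.

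Another phosphofructokinase 3 transcript moved the other way under low P. OptiV1C11348 (GRMZM2G443985) had values of 2.29, 2.22, 2.28 and 2.18 in control P and of 0.76, 1.02, 1.34 and 1.04 in low P. The groups were far apart, and the transcript fell by 1.20 ± 0.12 (2.30-fold, adjusted p = 0.00023). With the 2 spike-in scalings it fell by 0.97 and 0.69, less than 2-fold. Its change was 0.22 ± 0.33 under low T, where the control T values split into 1.1 and 1.38 against 2.37 and 2.47, and -0.31 ± 0.14 under low N. A further transcript of that annotation, OptiV1C09534 (AC194242.4_FG001), also fell under low P, by 0.75 ± 0.07 (adjusted p = 0.00019).

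The phosphofructokinase 3 transcript OptiV1C14138 (GRMZM2G004932) was below its control in every stress. In the low temperature experiment its values were 0.81, 0.83, 1.16 and 1.35 in control T and -0.21, -0.03, -0.07 and 0.12 in low T. No low T array reached the lowest control, and the transcript fell by 1.09 ± 0.16 (2.12-fold, adjusted p = 0.0021). The change was -0.94 on the slide that held replicates 1 and 2 of both groups and -1.23 on the slide that held replicates 3 and 4. It was under 2-fold after normexp background correction (-0.94, adjusted p = 0.022) and with the spike-in scalings (-0.65 and -0.87, adjusted p = 0.079 and 0.0030). Under low N and low P it fell by 0.51 ± 0.12 and 0.49 ± 0.07 (adjusted p = 0.033 and 0.0014).

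The remaining phosphofructokinases are annotated as phosphofructokinase 5. OptiV1C02014 (GRMZM2G009591) fell by 0.63 ± 0.16 under low T (adjusted p = 0.018), with changes of -0.16 and -0.21 under low N and low P that did not pass the test. Its low T fall did not pass the test after normexp correction or when all spike-in probes set the scale. OptiV1S28149 (GRMZM2G171796) rose by 0.28 ± 0.10 under low P (adjusted p = 0.049) and stood at -0.70 ± 0.24 under low T (adjusted p = 0.055).

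**Figure D2:**
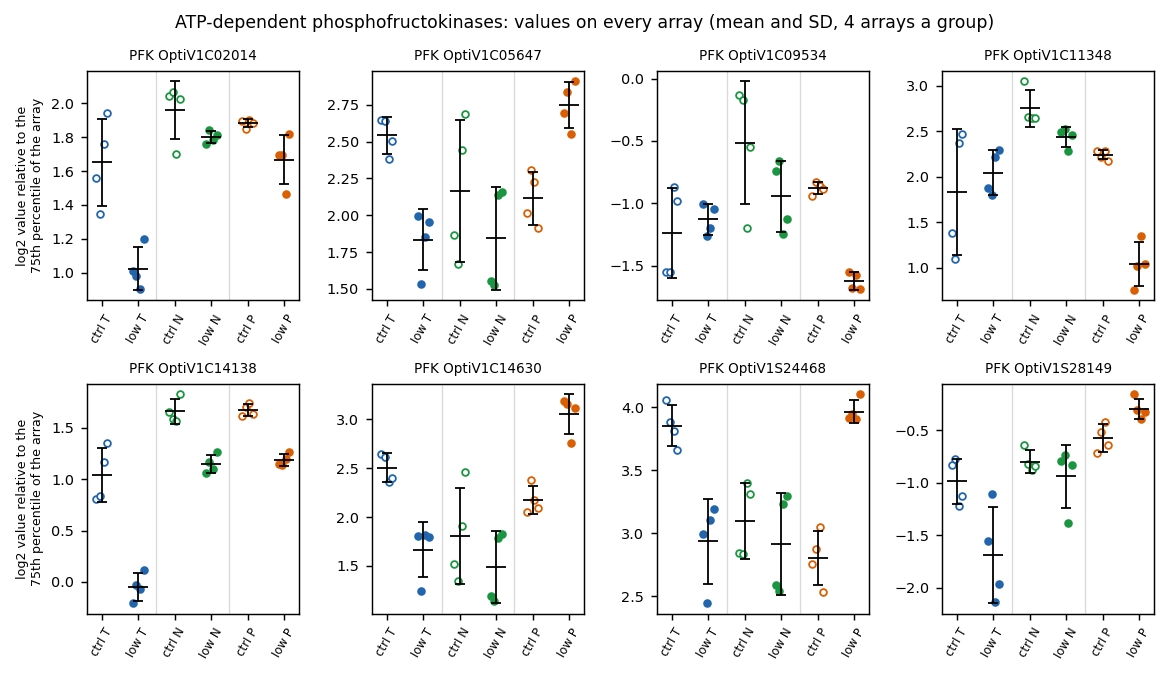
The value of each of the 8 ATP-dependent phosphofructokinase transcripts (y axis, log2 minus the array's 75th percentile) is shown on every array of the 6 groups (x axis). Open points are control and filled points stressed arrays, and the bars are the mean and SD of 4 arrays. OptiV1S24468, OptiV1C05647 and OptiV1C14630 are above control P under low P and below control T under low T, and OptiV1C11348 and OptiV1C09534 are below control P.

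Of the pyrophosphate-dependent phosphofructokinase 2 transcripts were analysed here, and their values do not stand for the whole step. OptiV1C11137 (GRMZM2G123371) had values of 1.0, 1.03, 0.93 and 1.23 in control P and of 0.10, -0.07, 0.30 and 0.19 in low P. The groups did not overlap, and the transcript fell by 0.92 ± 0.11 (1.89-fold, adjusted p = 0.00046). With the 2 spike-in scalings the change was -0.68 and -0.40 and did not pass the test (adjusted p = 0.063 and 0.10). Its change under low T was 0.37 ± 0.14 (adjusted p = 0.079) and under low N -0.54 ± 0.18 (adjusted p = 0.093). The other transcript, OptiV1C05440 (GRMZM2G450163), changed by -0.27 ± 0.26, -0.19 ± 0.21 and -0.37 ± 0.14 in low T, low N and low P, and none of these passed the test. Fructose-1,6-bisphosphatase OptiV1C00797 (GRMZM2G322953) rose by 0.46 ± 0.13 under low T and fell by 0.52 ± 0.11 under low P (adjusted p = 0.034 and 0.0067). The low T rise did not pass the test after normexp correction (adjusted p = 0.15) or without any 1 replicate (adjusted p = 0.076 to 0.13), and the low P fall did not after normexp correction (adjusted p = 0.064) or with the spike-in scalings (adjusted p = 0.46 and 0.98). Under low N the values were 3.0, 2.90, 2.09 and 2.22 in control N and 3.13, 3.05, 2.8 and 2.77 in low N for replicates 1 to 4. Each low N array lay above the control of its number, and the change was 0.39 ± 0.23 (adjusted p = 0.33, and 0.15 with the replicate number as a block). On the slide with both groups it was 0.69, and with the slide as a block the transcript rose by 0.59 (adjusted p = 0.040).

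The largest change of any member was at aldolase, which splits fructose 1,6-bisphosphate into triose phosphates. OptiV1C11726 (GRMZM2G345493), annotated as cytoplasmic isozyme 1, had values of 0.58, 0.63, 0.66 and 0.50 in control P. In low P the values were -2.26, -3.01, -2.32 and -2.80. The low P arrays lay far below the narrow range of control P, and the transcript fell by 3.19 ± 0.17 (9.15-fold, adjusted p = 1.3e-05). It changed by 0.28 ± 0.35 under low T and by -0.32 ± 0.20 under low N, without passing the test. The control T values ran from -0.59 to 0.91, and the low T change was 1.03 on the slide of replicates 1 and 2 and -0.47 on that of replicates 3 and 4.

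The other cytoplasmic aldolase, OptiV1C13621 (GRMZM2G066024), moved in the opposite direction under low P. Its values were 3.81, 4.20, 3.72 and 4.04 in control P and 4.69, 4.77, 4.55 and 4.61 in low P. It rose by 0.71 ± 0.12 (1.63-fold, adjusted p = 0.0026). Under low N it was at 0.35 ± 0.13 (adjusted p = 0.12) and under low T at -0.11 ± 0.28. The 2 aldolase transcripts thus changed with opposite signs in the same 8 low P and control P arrays.

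Triosephosphate isomerase interconverts the triose phosphates, and 1 of its 2 cytosolic transcripts responded. OptiV1S25307 (GRMZM2G146206) had values of -1.13, -1.07, -1.32 and -1.30 in control P and of 1.07, 1.18, 0.47 and 0.78 in low P. All low P arrays were above all controls, and the transcript rose by 2.08 ± 0.16 (4.23-fold, adjusted p = 6.2e-05). It also rose under low T, by 0.61 ± 0.18 (adjusted p = 0.034), a call lost after normexp correction and without replicate 1, 2 or 3, while the change under low N was 0.08 ± 0.26 with control N values from -0.54 to 0.61. The other transcript, OptiV1C08857 (GRMZM2G030784), changed by 0.15 ± 0.19, -0.13 ± 0.12 and -0.11 ± 0.09 in low T, low N and low P. The 95% interval of its change under low P ran from -0.32 to 0.10.

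At glyceraldehyde-3-phosphate dehydrogenase, the NADH-forming step, both cytosolic transcripts rose under low P. The GAPC4 transcript OptiV1C01647 (GRMZM2G176307) had values of -0.68, -0.32, -0.88 and -1.23 in control P and of 1.65, 1.70, 1.39 and 1.50 in low P. It rose by 2.34 ± 0.19 (5.06-fold, adjusted p = 7.1e-05), with the groups wide apart. Under low T and low N it was at 0.54 ± 0.28 and 0.31 ± 0.19, neither of which passed the test.

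The transcript of cytosolic form 1, OptiV1C09648 (GRMZM2G046804), had opposite signs under the nutrient stresses. It rose by 0.55 ± 0.09 under low P (adjusted p = 0.0022), where the values were 6.0, 6.13, 6.06 and 5.80 in control P and 6.53, 6.61, 6.5 and 6.56 in low P. It fell by 0.63 ± 0.13 under low N (adjusted p = 0.020), from 5.92, 6.02, 6.20 and 6.13 in control N to 5.32, 5.36, 5.58 and 5.49. In neither experiment did the groups overlap. The low N fall did not pass the test with quantile normalization (-0.41, adjusted p = 0.087), with the spike-in scalings (-0.10 and -0.06, adjusted p = 0.87 and 0.91) or without replicate 1, 2 or 4, and the low P rise did not after normexp correction. Under low T its change was -0.56 ± 0.22 (adjusted p = 0.085).

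Phosphoglycerate kinase, the first ATP-forming step, had a single transcript in the list, OptiV1C09486 (GRMZM2G382914), which the study also lists as chloroplastic under the Calvin cycle. It changed by 0.08 ± 0.13 under low T, -0.28 ± 0.13 under low N and 0.19 ± 0.12 under low P, and none of these passed the test. Its values lay between 3.92 and 5.14 over all 24 arrays.

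**Figure D3:**
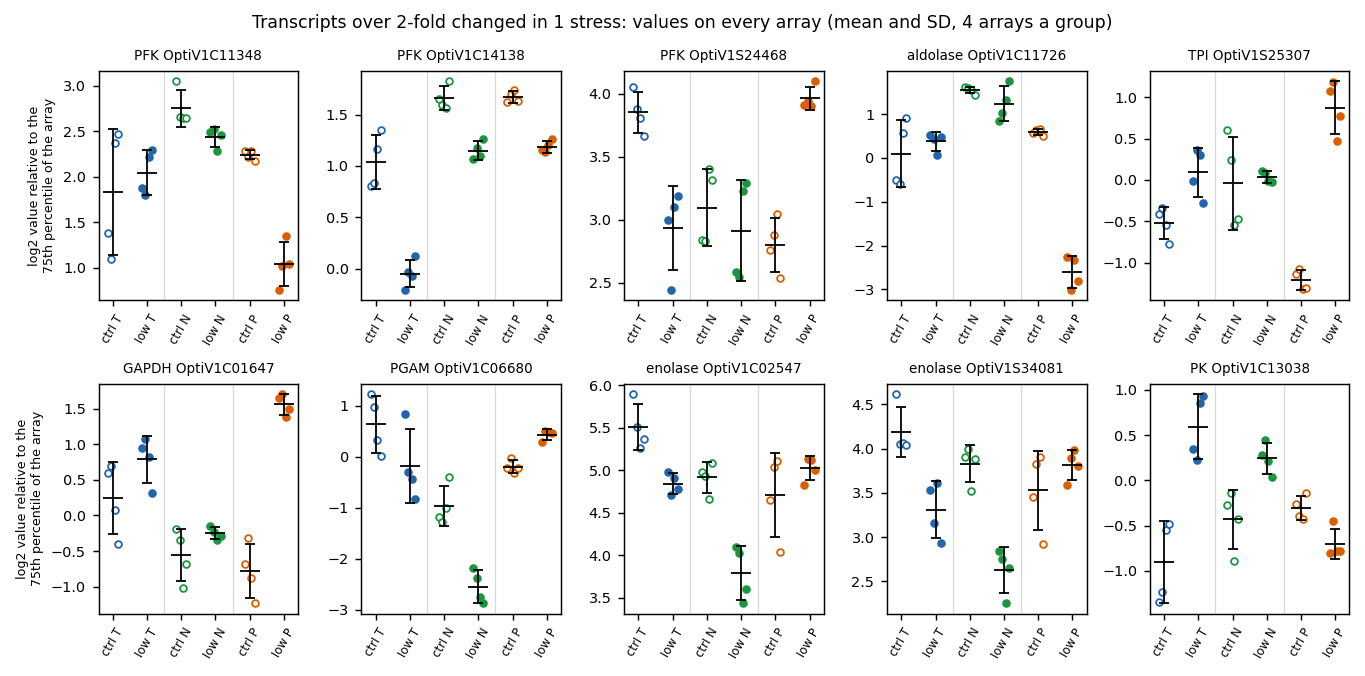
The value (y axis, log2 minus the array's 75th percentile) of each of the 10 transcripts that changed more than 2-fold in 1 stress is shown on every array of the 6 groups (x axis), with open points for control and filled points for stressed arrays and bars for the mean and SD of 4 arrays. Aldolase OptiV1C11726 lies between -3.01 and -2.26 under low P and higher on every other array, and pyruvate kinase OptiV1C13038 rises from between -1.35 and -0.48 to between 0.23 and 0.94 under low T.

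In the lower part of the pathway, which leads from 3-phosphoglycerate to phosphoenolpyruvate, the changes of more than 2-fold were under low N. Phosphoglycerate mutase, which moves the phosphate group of 3-phosphoglycerate, had 8 transcripts. Of these 4 fell under low N and 3 under low T, and 0 rose in either, and with the spike-in scalings 0 fell under low N and 0 and 1 under low T. After normexp correction 4 fell under low N and 0 under low T. Under low P 3 rose and 1 fell, and after normexp correction 1 rose and 1 fell. With the spike-in scalings 1 and 5 rose and 0 fell under low P.

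The family member OptiV1C06680 (GRMZM2G021605) had values of -1.18, -1.28, -1.0 and -0.41 in control N and of -2.18, -2.39, -2.76 and -2.87 in low N. The groups did not overlap, and the transcript fell by 1.58 ± 0.24 (2.99-fold, adjusted p = 0.0064). On the slide that held control N replicate 3 and low N replicates 3 and 4 the change was -1.81. With the spike-in scalings the changes were -1.05 and -1.01 and no longer passed the test (adjusted p = 0.18 and 0.14). The same transcript rose by 0.63 ± 0.09 under low P (adjusted p = 0.0014), from between -0.32 and -0.02 to between 0.29 and 0.51. Under low T its arrays were widely spread in both groups, from 0.02 to 1.22 in control T and -0.83 to 0.84 in low T, and the change of -0.82 ± 0.40 did not pass the test.

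The other mutases changed less than 2-fold in the fit without a block. OptiV1C11082 (GRMZM2G009607) fell by 0.86 ± 0.16 under low T and by 0.89 ± 0.11 under low N (adjusted p = 0.0049 and 0.0033), and its change under low P was 0.19 ± 0.13. OptiV1S22369 (GRMZM2G146778) fell by 0.64 ± 0.17 and 0.77 ± 0.15 in the same stresses (adjusted p = 0.024 and 0.018). These 2 transcripts correlated at 0.94 over the 24 arrays and at 0.72 within groups.

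Mutase OptiV1S21071 (GRMZM2G051697) was, besides phosphofructokinase OptiV1C14138, the only member to fall in all 3 stresses. It fell by 0.71 ± 0.19 under low T, 0.90 ± 0.21 under low N and 0.64 ± 0.11 under low P (adjusted p = 0.022, 0.031 and 0.0032). The values were 0.28 to 0.74 in control T against -0.52 to 0.12 in low T, 0.63 to 1.31 in control N against -0.35 to 0.39 in low N, and 0.41 to 0.80 in control P against -0.16 to 0.13 in low P. In each experiment every stressed array lay below every control. With the slide as a block the low N change was -1.03 (adjusted p = 0.0064), so that this transcript was then called more than 2-fold lower. With the spike-in scalings the falls did not pass the test in any of the 3 stresses, and without any 1 replicate those under low T and low N did not.

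The remaining mutases moved under low P or not beyond the test. OptiV1C06015 (GRMZM2G142777) and OptiV1C10574 (GRMZM2G141634) rose under low P by 0.49 ± 0.11 and 0.45 ± 0.15 (adjusted p = 0.0098 and 0.044) and passed the test in no other stress. OptiV1C05344 (GRMZM2G060185) changed by 0.09, -0.11 and -0.16 in low T, low N and low P. OptiV1C03046 (GRMZM2G334628) was the 1 member near background. It was well above background on 4 of 4 arrays of control T and of low T, 2 of control N, 0 of low N, 0 of control P and 1 of low P, and none of its differences passed the test.

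Enolase, which forms phosphoenolpyruvate, had 4 transcripts, and 2 of them fell more than 2-fold under low N. OptiV1C02547 (GRMZM2G064302) had values of 4.98, 4.93, 4.67 and 5.09 in control N and of 4.09, 4.03, 3.44 and 3.60 in low N. It fell by 1.12 ± 0.19 (2.18-fold, adjusted p = 0.0094). Enolase 1, OptiV1S34081 (GRMZM2G446253), went from 3.90, 4.00, 3.52 and 3.88 to 2.84, 2.76, 2.26 and 2.65 and fell by 1.20 ± 0.17 (2.30-fold, adjusted p = 0.0055). For neither transcript did the groups overlap, and on the slide with arrays of both groups the changes were -1.15 and -1.07.

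These calls were near the threshold. Without replicate 1, 2 or 4 of both groups OptiV1C02547 stayed at -1.20, -1.20 and -1.0 with adjusted p of 0.056, 0.064 and 0.062, and without replicate 1 or 2 OptiV1S34081 stayed at -1.25 and -1.19 with adjusted p of 0.052 and 0.058. With the spike-in scalings the changes under low N were -0.59 and -0.55 for OptiV1C02547 and -0.67 and -0.63 for OptiV1S34081, and neither passed the test. Both transcripts also fell under low T, by 0.67 ± 0.16 and 0.88 ± 0.21 (adjusted p = 0.016 and 0.014), but neither passed the test under low T after normexp correction or with the spike-in scalings. Under low P they were at 0.31 ± 0.23 and 0.29 ± 0.22. Over the 24 arrays they correlated at 0.95, and at 0.90 within groups, and whether their probes tell the 2 loci apart was not tested.

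The 2 other enolases did not pass the test in any stress. OptiV1C06389 (GRMZM2G048371) was at -0.63 ± 0.18 under low N (adjusted p = 0.058) and at -0.01 and -0.18 under low T and low P. OptiV1C16439 (GRMZM2G131539), a putative enolase, was at 0.02, -0.16 and -0.19 in low T, low N and low P.

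Pyruvate kinase, the last step and the second that forms ATP, had 5 transcripts, and a single one rose more than 2-fold. OptiV1C13038 (GRMZM2G124593) had values of -1.35, -1.24, -0.55 and -0.48 in control T and of 0.35, 0.23, 0.86 and 0.94 in low T. Replicates 1 and 2 were below replicates 3 and 4 in both groups, and all low T arrays lay above all control T arrays. The transcript rose by 1.50 ± 0.26 (2.83-fold, adjusted p = 0.0044), by 1.58 on the slide of replicates 1 and 2 and by 1.41 on that of replicates 3 and 4. Under low N it was at 0.67 ± 0.19 (adjusted p = 0.055), and under low P it fell by 0.39 ± 0.11 (adjusted p = 0.023). The low P fall did not pass the test after normexp correction or with the spike-in scalings.

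The other pyruvate kinases had other signs. OptiV1C12974 (GRMZM2G150098) and OptiV1S26101 (GRMZM2G008714) rose under low P by 0.59 ± 0.10 and 0.58 ± 0.09 (adjusted p = 0.0028 and 0.0013). Under low T they were at -0.43 ± 0.22 and -0.54 ± 0.25 and under low N at -0.53 ± 0.21 and -0.65 ± 0.22, none of which passed the test. OptiV1C01725 (GRMZM2G119175) fell by 0.61 ± 0.14 under low T (adjusted p = 0.015), a fall that did not pass the test after normexp correction or with the spike-in scalings. OptiV1S29738 (GRMZM2G003883) changed by -0.17, 0.15 and -0.18 in low T, low N and low P, without passing the test.

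Whether a member responded differently to 2 stresses was tested as the difference between its changes, in 1 fit over all 24 arrays. A difference is called at an adjusted p under 0.05 and a size over 1 on the log2 scale. The change under low N differed from that under low P in 14 members. It was the more positive in 2, against 3.70% of all tested probes, and the more negative in 12, against 8.27%. The change under low T differed from that under low P in 15 members, with 4 more positive (9.68%) and 11 more negative (14.7%). Between low T and low N 0 members differed by this limit, where 6.48% of all tested probes were more positive and 6.22% more negative under low T. At an unadjusted p under 0.05 the latter difference was met by 8 members (34.8% of all tested probes), and by 4 at the adjusted p alone (22.5%).

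Of the members that differed, 12 did so from low P in both comparisons, which share the low P and control P arrays. The share of all tested probes that differed in both comparisons was not determined. Aldolase OptiV1C11726 had the largest differences, of 2.88 ± 0.38 for low N minus low P and 3.47 ± 0.38 for low T minus low P (adjusted p = 2.6e-05 and 7.7e-07). The differences of triosephosphate isomerase OptiV1S25307 were -2.0 ± 0.30 and -1.47 ± 0.30. Those of GAPC4 OptiV1C01647 were -2.03 ± 0.33 and -1.80 ± 0.33. With spike-in scaling the number of members that differed was 2 for low N minus low P and 7 for low T minus low P, and with restricted spike-in scaling, on the 7 spike-in probes above background throughout, 6 and 19.

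Phosphofructokinase OptiV1S24468 differed by -1.34 ± 0.27 (low N minus low P) and -2.08 ± 0.27 (low T minus low P), with adjusted p of 0.0015 and 6.5e-06. Mutase OptiV1C06680 differed by -2.21 and -1.44, enolase OptiV1S34081 by -1.49 and -1.17, and pyruvate kinase OptiV1C13038, with the opposite sign, by 1.07 and 1.89. In the signs alone, 15 of the 39 members were lower under low T, lower under low N and higher under low P and 8 were lower in all 3 stresses, against 19.3% and 15.7% of all tested probes. Under low T and low P 26 of the 39 members had opposite signs, against 55.3% of all tested probes. Under low T and low N 27 had the same sign, against 62.0% of all tested probes, and the Pearson r of the changes was 0.63 across the 39 members and 0.35 across all tested probes, a description across genes that are not independent replicates. With the spike-in scalings 24 and 18 members were higher under low T, 25 and 28 under low N and 29 and 33 under low P, where 13, 7 and 21 were higher relative to the 75th percentile.

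**Figure D4:**
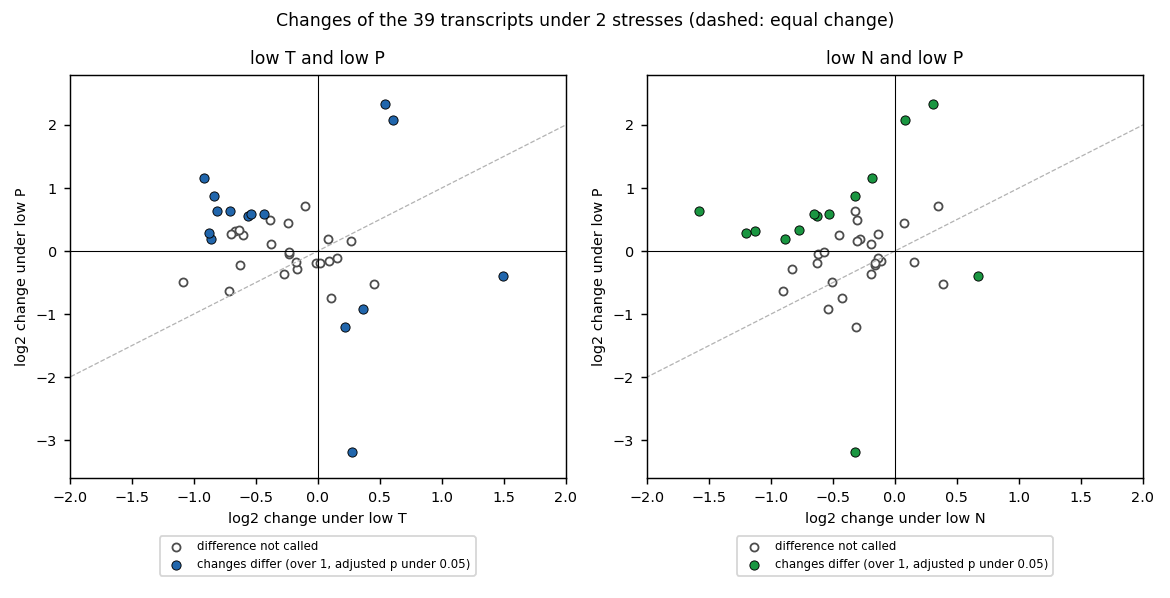
Each point is 1 of the 39 members, with its log2 change under low T (left, x axis) or low N (right, x axis) against its log2 change under low P (y axis). Filled points are the 15 and 14 members whose changes differed by more than 1 with an adjusted p under 0.05, and the dashed line marks equal change. The points highest on the y axis are GAPC4 and triosephosphate isomerase OptiV1S25307, and the lowest is aldolase OptiV1C11726.

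The slides limit what can be said of low P. The 4 control P arrays shared 1 slide and the 4 low P arrays a second one. Slide and treatment therefore cannot be told apart in any low P value above. In the low temperature experiment each of the 2 slides held both groups. In the low N experiment 1 of 4 slides did so. Several members stood at different levels in replicates 1 and 2 than in replicates 3 and 4 of both groups, as glucose-6-phosphate isomerase OptiV1S28309 did in the low N and pyruvate kinase OptiV1C13038 in the low temperature experiment. In the low temperature and low N experiments these pairs of replicates were on separate slides. In the low N experiment replicates 1 and 2 of control N shared a slide and those of low N another one, so that for them slide and treatment cannot be told apart. Which of the successive sets of plants a replicate came from is not given in the sources used here. Their part in the changes was not tested beyond the values within slides and with the replicate number as a block.

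Enzymes that catalyse the same reactions but are listed by the study under the Calvin cycle or the oxidative pentose phosphate pathway were set beside the members. Of these 11 transcripts 10 were tested, and 0 changed more than 2-fold under low T or low N, where 1 and 4 had an unadjusted p under 0.05 in limma, against 43.5% and 27.5% of all tested probes. Under low P 1 did, glucose-6-phosphate isomerase OptiV1C09445 (GRMZM2G140614), which rose by 1.11 ± 0.16 (adjusted p = 0.0012). The same transcript fell by 0.67 under low T (adjusted p = 0.012). A triosephosphate isomerase outside the list, OptiV1C15956, rose by 0.73 under low P (adjusted p = 0.013). At the adjusted p alone 2 of the 10 rose and 1 fell under low P (20.9% and 20.2% of all tested probes). Under low N 0 rose and 2 fell (5.33% and 5.76%), and under low T 0 rose and 1 fell (15.2% and 15.8%). Of the 25 transcripts listed for the TCA cycle, which oxidizes the pyruvate that glycolysis delivers, 1 rose more than 2-fold under low T, 1 fell under low N and 1 rose under low P. Of the 22 listed for the oxidative pentose phosphate pathway, which draws on the same glucose 6-phosphate, 2 fell under low T, 2 fell under low N, and 3 rose and 2 fell under low P. Among all tested probes 7.25% rose and 7.12% fell more than 2-fold under low T. These shares were 2.68% and 3.12% under low N and 8.21% and 3.01% under low P.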

How the data were processed

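The scanner files deposited for the 24 arrays hold intensity values, which the authors obtained with Agilent Feature Extraction (version 11.7.1 in the submitters' processing notes, 11.0.1.1 in the file headers) with the background subtracted and without scaling arrays to each other. A table deposited beside them holds log2 values, which the authors scaled to the 75th percentile and corrected to a baseline in GeneSpring. It served as an alternative.

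From the intensities, log2 values were computed and reduced by each array's 75th percentile, taken over 41780 transcript probes. Outlier-flagged spots were dropped. A probe entered the tests when it was well above background on every array of any 1 group, which held for 31507 probes, tested with limma 3.58.1 in R 4.3.3 (lmFit, eBayes), on the 8 arrays of each experiment or, for differences between stresses, on all 24. The limits were a fold change over 2 (a difference over 1 on the log2 scale) and a Benjamini-Hochberg adjusted p under 0.05 over all tested probes. An exact test of 4 against 4 arrays cannot give a two-sided p under 0.0286. The fit was tested on simulated data. Figures were made with matplotlib 3.10.9. Precision is limited by the number of arrays, and the files held 0 columns of other samples.

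Members and lists were chosen with earlier results of these data known. Full values are given for members changed more than 2-fold, and the others are given by step. Each called member or difference, the only member of a step and the other isoforms of a step with such a member were named. Alternatives were quantile normalization, normexp (offset 50, on median signals in place of the mean signals planned), spike-in scaling, the deposited table, other background filters, no fold limit, 1 fit over all arrays, slide and replicate blocks, and leaving out each replicate. Loci are those of build 4a.53 in the study's list. Of the 39 loci 30 matched, by a synonym, a RefSeq gene (Zm-B73-REFERENCE-NAM-5.0), and no coordinates are given. Among these the locus of aldolase OptiV1C11726 matched 2 RefSeq genes.

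Replicates are biological according to the study's methods. Arrays with the same replicate number deviated together in the low temperature (r of 0.192 to 0.424) and low N (0.176 to 0.363) experiments and are taken as paired there by a limit of 0.1. The pairing comes from these correlations only. Arrays with other numbers reached 0.415 and 0.347 within replicates 1 and 2 or 3 and 4. In the low P experiment the correlations were -0.104 to 0.0475, so that its arrays share only a number.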

Additional observations from a re-analysis of the deposited data

Results flagged for a closer look

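A single array stood far from the other 3 of its group in 16 of the 234 combinations of member and group, where chance alone gives about 1 in 20. Of these 3 were on the array of low T replicate 2, which was low for phosphofructokinase OptiV1C14630 (1.24, the others 1.79 to 1.81) and for the mutases OptiV1C11082 (3.44, the others 3.97 to 4.02) and OptiV1S22369 (1.49, the others 2.08 to 2.18). Under low T the other arrays far off were replicate 4 for phosphoglycerate kinase OptiV1C09486 (5.14, the others 4.96 to 4.98) and replicate 1 for pyruvate kinase OptiV1C01725 (2.55, the others 2.19 to 2.22), and in control T replicate 1 for enolase OptiV1S34081 (4.61, the others 4.04 to 4.06). In the low N experiment they were low N replicate 3 for phosphofructokinase OptiV1S28149 (-1.39, the others -0.83 to -0.73) and mutase OptiV1C05344 (-0.14, the others -0.41 to -0.38), and low N replicate 4 for the dim mutase OptiV1C03046 (-7.89, the others -6.22 to -6.05). In control N replicate 3 was low for phosphofructokinase OptiV1C02014 (1.70, the others 2.02 to 2.07) and replicate 1 high for OptiV1C11348 (3.05, the others 2.65 to 2.66). In low P replicate 3 stood apart for the pyrophosphate-dependent OptiV1C05440 (-0.018, the others -0.58 to -0.49) and for OptiV1C14630 (2.76, the others 3.12 to 3.19), replicate 4 for triosephosphate isomerase OptiV1C08857 (3.35, the others 3.13 to 3.15) and replicate 2 for pyruvate kinase OptiV1C13038 (-0.45, the others -0.80 to -0.78). In control P replicate 4 was low for pyruvate kinase OptiV1C01725 (2.52, the others 2.75 to 2.77).

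Members whose change differed between 2 stresses were tested by the interaction in limma. For low N minus low P the differences were -1.34 for OptiV1S24468, -1.20 for OptiV1C14630, 2.88 for aldolase OptiV1C11726, -2.0 for OptiV1S25307, -1.18 for OptiV1C09648 and -2.03 for OptiV1C01647. In the lower part of the pathway they were -1.08 for OptiV1C11082, -1.11 for OptiV1S22369, -2.21 for OptiV1C06680, -1.44 for OptiV1C02547 and -1.49 for OptiV1S34081, and among the pyruvate kinases -1.13 for OptiV1C12974, -1.24 for OptiV1S26101 and 1.07 for OptiV1C13038. For low T minus low P they were 1.28 for OptiV1C11137, -2.08 for OptiV1S24468, -1.34 for OptiV1C05647, 1.42 for OptiV1C11348, -1.72 for OptiV1C14630, 3.47 for OptiV1C11726, -1.47 for OptiV1S25307, -1.11 for OptiV1C09648 and -1.80 for OptiV1C01647. From the mutases on they were -1.05 for OptiV1C11082, -1.44 for OptiV1C06680, -1.17 for OptiV1S34081, -1.03 for OptiV1C12974, -1.12 for OptiV1S26101 and 1.89 for OptiV1C13038. Both comparisons use the same low P and control P arrays, in which slide and treatment cannot be told apart.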

How the results depend on the processing

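Of the 10 changes of more than 2-fold, 5 kept that call under every alternative run, namely pyruvate kinase OptiV1C13038 under low T and OptiV1S24468, OptiV1C11726, OptiV1S25307 and OptiV1C01647 under low P, for which no slide block could be fitted. No called change or difference between stresses turned its sign. The fold limit and the scaling moved the counts most. Under low T the members called higher were 1, and 2 with spike-in scaling and 3 without a fold limit. Those called lower were 1, and 0 with normexp correction and either spike-in scaling, 11 without a fold limit, and 1 to 2 when 1 replicate was left out (2 without replicate 3, by enolase OptiV1S34081, or replicate 4, by OptiV1S24468). Under low N the 3 called lower became 4 with the slide as a block (by mutase OptiV1S21071, at -1.03), 0 with either spike-in scaling, 8 without a fold limit, and 1 to 3 when 1 replicate was left out (1 without replicate 1 or 2). Quantile normalization put enolase OptiV1C02547 at -0.95, under the fold limit. Under low P the 3 called higher became 11 with restricted spike-in scaling and 13 without a fold limit, and the 2 called lower became 1 with either spike-in scaling and 8 without a fold limit. The 14 differences of low N from low P became 2 and 6 with the spike-in scalings. The 15 of low T from low P became 7 and 19 with the spike-in scalings and 25 without a size limit. For low T against low N the count of 0 became 1 with restricted spike-in scaling and 4 without a size limit, and 8 members had an unadjusted p under 0.05 in limma. The cause was not tested. With the replicate number as a block the calls were 1 higher and 1 lower under low T, 0 and 3 under low N, and 3 and 2 under low P. This paired fit thus changed no count of the changes of more than 2-fold. The low P result is limited by its slides, and OptiV1C03046 by its signal near background.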
